A study of Mus musculus with 15 samples.

Results

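The 10 genes Erg, Fli1, Ets1, Ets2, Tal1, Lmo2, Sox7, Sox17, Sox18 and Gata2 encode transcription factors of endothelial cells, and they were examined among 21774 protein-coding genes of RefSeq. For each gene, the H3K27ac peaks of an MCP tumor were taken from the gene's span and 50 kb either side. A peak within 2 kb of a start site was assigned to the promoter, another peak touching the gene to the gene body, and the rest to the flank. The 10 windows covered 1.55 Mb of the mouse genome (GRCm38/mm10) and held 97 of the 122375 peaks of the library, and no peak lay in more than 1 window.

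The study modelled fusion-positive rhabdomyosarcoma (FP-RMS), a childhood sarcoma whose driver is PAX3-FOXO1 (P3F), a fused transcription factor, in mice. MCP tumors carried Myf6-Cre, which acts in myogenic cells, and TCP tumors carried Tek-Cre, which acts in endothelial and blood cells. Both also carried Cdkn2a(Flox/Flox), the Pax3 allele with P3F, which the labels spell Pax(3P3F/P3F), and R26-tdTom, a red fluorescent reporter, so P3F was made from the Pax3 locus and Cdkn2a was lost wherever Cre had acted. Of 15 CUT&RUN libraries, 9 were made with an antibody to H3K27ac (6 MCP and 3 TCP) and 6 with IgG (3 MCP and 3 TCP), on nuclei of live cells sorted from digested bulk tumors. A single peak list, that of MCP H3K27ac replicate 5, was used, so there are no replicates, no value below has a biological error, and no test was run. In a sorted population of tumor cells, fewer cells with the mark and less mark per cell cannot be told apart.

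H3K27ac is an acetyl mark on histone H3 at active promoters and enhancers, and CUT&RUN cuts and recovers the DNA beside it. ERG, FLI1, ETS1 and ETS2 belong to the ETS family, which binds DNA around the core GGAA, and ERG and FLI1 maintain the identity of endothelial cells. TAL1 is a basic helix-loop-helix factor that binds E-boxes, LMO2 is an adaptor without DNA binding of its own, and GATA2 is a zinc finger factor. These proteins meet in a complex that drives the formation of blood stem cells from hemogenic endothelium. SOX7, SOX17 and SOX18 form the SOXF group, which acts in arterial specification and in the growth of lymphatic vessels.

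The sequences below are shown because they carry the strongest acetylation at 3 of the genes and a site known from endothelial biology. The first 3 run from 100 bp before to 100 bp after the summit of the strongest peak in a window, on the strand of the gene, and capitals mark matches to any of 9 motifs listed with the motif shares. The Ets2 summit lay at chr16:95675714-95675914 (plus strand), 26.6 kb upstream of the gene in intergenic sequence. The Ets1 summit lay at chr9:32730872-32731072 (plus strand) in an intron of Ets1. The Sox7 summit lay at chr14:63899795-63899995 (plus strand) in an intron of the neighbouring gene Pinx1.
Ets2: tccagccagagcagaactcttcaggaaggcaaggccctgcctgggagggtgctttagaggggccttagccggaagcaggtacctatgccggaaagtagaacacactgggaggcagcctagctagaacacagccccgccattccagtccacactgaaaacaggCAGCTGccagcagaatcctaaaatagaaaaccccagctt
Ets1: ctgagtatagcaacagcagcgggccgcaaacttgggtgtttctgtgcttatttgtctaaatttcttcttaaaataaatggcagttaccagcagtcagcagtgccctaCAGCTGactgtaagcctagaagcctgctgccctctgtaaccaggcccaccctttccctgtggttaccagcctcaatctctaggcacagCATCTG
Sox7: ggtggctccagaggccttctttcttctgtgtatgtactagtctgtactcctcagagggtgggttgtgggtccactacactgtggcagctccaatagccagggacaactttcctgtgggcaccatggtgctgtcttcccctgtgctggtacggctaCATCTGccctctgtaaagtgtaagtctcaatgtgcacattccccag
The last stretch, of 211 bp, lay in intron 4 of Gata2 at chr6:88203057-88203267 (plus strand), from the first base of a peak to the base before the next peak. Capitals mark an E-box CATCTG and a GATA site AGATAA with 8 bases between them, at chr6:88203185-88203204.
Gata2: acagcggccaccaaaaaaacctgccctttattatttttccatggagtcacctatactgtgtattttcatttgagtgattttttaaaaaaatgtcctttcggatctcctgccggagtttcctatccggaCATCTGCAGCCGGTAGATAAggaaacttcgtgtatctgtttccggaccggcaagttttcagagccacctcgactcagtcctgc
All sequences are those of the RefSeq assembly GRCm38.p6.

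H3K27ac was spread unevenly over the 10 genes. Ets1 held 50 of the 97 peaks (51.5%), Ets2 held 12, Erg and Gata2 held 10 each and Sox7 held 8. Tal1 and Sox18 had 3 peaks each and Lmo2 had 1, and no peak was listed at Fli1 or Sox17. So 8 of 10 genes had any peak in the window, beside 76.3% of all protein-coding genes. A peak in the gene or at its promoter was listed for 4 of 10 (Erg, Ets1, Ets2 and Gata2), beside 52.6% of all genes. At Tal1, Lmo2, Sox7 and Sox18 every peak was in the flank.

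**Figure D1:**
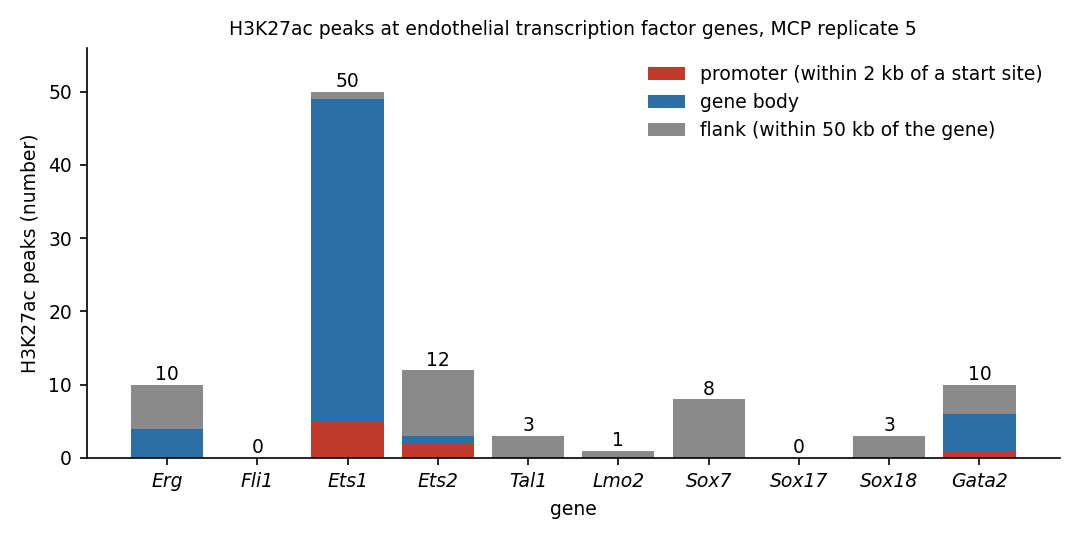
The number of H3K27ac peaks (vertical axis) in the window of each gene (horizontal axis) in MCP H3K27ac replicate 5, colored by promoter, gene body and flank, with the total above each bar. The bar of Ets1 reaches 50 peaks, of which 44 were in the gene body, and those of Fli1 and Sox17 are empty.

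Promoters carried few peaks. A promoter peak was listed at Ets1, Ets2 and Gata2, which is 3 of 10 genes (30%, Wilson 95% interval 10.8 to 60.3%), beside 45.6% of all protein-coding genes. The promoters of 9 of the 10 genes were rich in CpG, with an observed over expected ratio of at least 0.6 within 500 bp of a curated start site. Erg was the exception at 0.448, and the other genes lay between 0.677 (Sox17) and 0.868 (Lmo2). Among the 9 CpG-rich genes 3 had a promoter peak (33.3%, 12.1 to 64.6%), beside 71.5% of all 10814 protein-coding genes with such a start site. The CpG-rich promoters of Fli1, Tal1, Lmo2, Sox7, Sox17 and Sox18 thus had no peak past the caller's threshold in this library.

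The density over the 10 windows depended on Ets1. There were 62.6 peaks per Mb (exact Poisson 95% interval 50.8 to 76.4), which is 1.39 times the 44.9 peaks per Mb of all chromosomes. Without Ets1 the other 9 windows held 47 peaks at 35.2 per Mb, which is 0.784 times the density of all chromosomes. The median gene of the 10 had 3.00 peaks per 100 kb, beside 5.36 over all protein-coding genes (quartiles 0.726 and 12.3). The nearest summit was a median 22.5 kb from a start site in the 10 genes and 5.93 kb over all genes.

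In order of density, Ets1 had 22.6 peaks per 100 kb (exact Poisson 95% interval 16.7 to 29.7) and was above 92.3% of all protein-coding genes or level with them. Ets2 followed with 10.1 per 100 kb (5.23 to 17.7), Gata2 with 8.84 (4.24 to 16.3) and Sox7 with 7.47 (3.23 to 14.7). These 4 genes were above the median of all genes. Erg had 3.05 per 100 kb (1.46 to 5.62), Sox18 2.95 (0.608 to 8.61), Tal1 2.60 (0.536 to 7.60) and Lmo2 0.807 (0.0204 to 4.49). The intervals of neighbours in this order overlapped in each case, while that of Ets1 did not overlap those of Gata2 or any gene after it. The intervals cover counting error only. Like that over the 10 windows, they treat peaks as independent, which neighbouring peaks are not. At Ets1, 47 of the 50 peaks lay in 1 stretch with a median gap of 190.5 bp. Overlap of the intervals, or its lack, thus does not rank the genes.

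**Figure D2:**
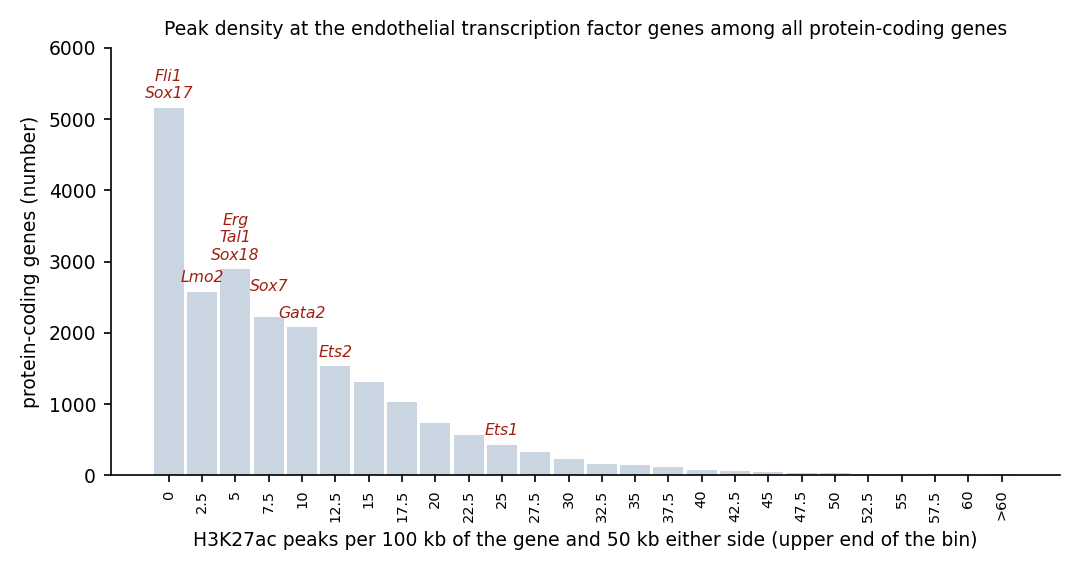
The number of protein-coding genes (vertical axis) by the density of H3K27ac peaks in the gene and 50 kb either side (horizontal axis, bins of 2.5 peaks per 100 kb, with 5158 genes at 0 in the first bar). The names of the 10 genes stand above their bins, with Ets1 alone in the tail at 22.6 peaks per 100 kb and 6 of the genes at or below 3.05.

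The peaks had the median fold enrichment of the whole list, but a larger share of them had fewer than 20 fragments. The list gives each peak a fold enrichment. It was read as the ratio of scaled H3K27ac fragments at the summit to background, with the same constant added to both. The median fold over the 97 peaks was 5.22 (quartiles 4.36 and 6.51), and the median and both quartiles were the same over all peaks. These 3 values are the folds of 11, 9 and 14 fragments at that commonest background, so they move in steps. The summits held a median 13 fragments (range 7 to 27), and 91.8% of them had fewer than 20, beside 84.2% of all peaks. At 13 fragments the exact Poisson 95% interval was 6.92 to 22.2, so most of these peaks could not be ranked against each other. Summits fell in introns for 72 of the 97 peaks, in intergenic sequence for 21 and in exons for 4. Every peak of the Ets1 window was among the intronic ones, and the same shares over all peaks are not given here.

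ETS1, an ETS factor of angiogenesis that also acts in lymphocytes, had the most acetylated gene of the 10. Only 2.21% of all protein-coding genes had as many as 50 peaks in their window. The gene spans chr9:32636241-32757820 on the plus strand and has 2 start sites 59.8 kb apart. All 5 promoter peaks of Ets1 lay at the second start site, and the first had none. The nearest promoter summit was 0.467 kb upstream of the second site. The strongest promoter peak, at chr9:32694921-32695425, had a fold enrichment of 8.29 and 27 fragments (17.8 to 39.3).

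From there the peaks ran through most of the rest of the gene. Between 59.0 and 114.9 kb from the first start site lay the summits of 47 of the 50 peaks, with a median gap of 190.5 bp between neighbours. Before that stretch the gene had 2 peaks, at 5.63 and 6.25 kb, each with 9 fragments, followed by 52.4 kb without a peak. The strongest peak of the gene, whose summit sequence is shown above, lay in an intron at chr9:32730702-32731031 with a fold enrichment of 10.7 and 26 fragments (17.0 to 38.1). Its fold was at or above that of 96.7% of all peaks. In the flank 1 peak was listed, at chr9:32792092-32792242 in an intron of Gm3331, with a fold enrichment of 4.61.

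When neighbouring peaks were joined at the distance customary for super-enhancers, leaving out those lying wholly within 1 kb of a start site, 45 of the Ets1 peaks formed 1 cluster of 56.3 kb, at chr9:32694921-32751231. Clusters were ranked by the sum of fold enrichment times width, and a limit was set where the slope of the ranked curve reached 1 after scaling, as is done to name super-enhancers. The Ets1 cluster had rank 268 of 20524, and 864 clusters were above the limit. No other gene of the 10 had a cluster above it, so 1 of 10 windows touched one, beside 8.28% of all protein-coding genes. Next by rank were an upstream cluster of 8 peaks at Ets2 (rank 2634) and 1 of 9 peaks over the Pinx1 side of the Sox7 window (rank 3475).

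FLI1, the neighbour of ETS1 and a close relative of ERG, showed the opposite. The gene spans chr9:32422204-32543432 on the minus strand, and 92.8 kb separate it from Ets1. No peak lay in Fli1, within 50 kb of it or between the pair of genes. The stretch without a peak around Fli1 was 414.8 kb long, from the peak before it to the first peaks of Ets1. The peak nearest to a start site of Fli1 was 98.4 kb away, inside Ets1. The peaks are numbered along the genome in the list, and no number was missing over this window or that of any other gene of the 10. No peak in the window was also what 23.7% of all protein-coding genes showed.

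**Figure D3:**
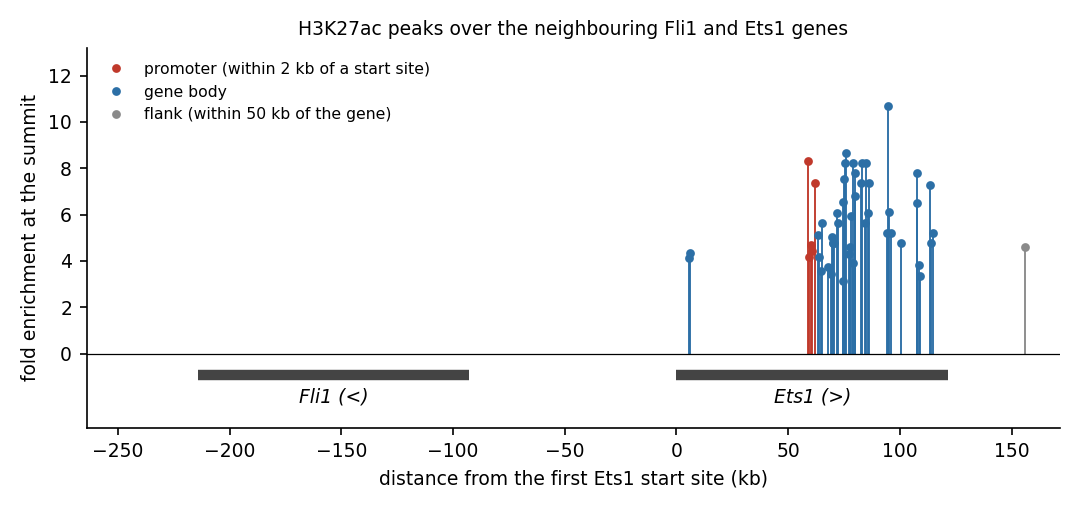
Fold enrichment at the summit (vertical axis) of each H3K27ac peak in the windows of Fli1 and Ets1, by distance from the first Ets1 start site in kb (horizontal axis), colored by class, with dark bars for the genes and signs for their direction. No peak stands over Fli1, and 47 peaks stand between 59.0 and 114.9 kb over Ets1.

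ETS2, which acts downstream of growth factor and Ras signaling, had both its promoter and a distal region marked. The gene spans chr16:95702407-95721049 on the plus strand. Its stronger promoter peak, at chr16:95701938-95702066, had its summit 0.371 kb upstream of the start site, a fold enrichment of 6.94 and 15 fragments (8.40 to 24.7). A second promoter peak lay 0.838 kb inside the gene with a fold enrichment of 4.79. The first of these lay within 2 kb of a start site of Gm31989 also, so it cannot be assigned to Ets2 alone. In the gene body 1 intronic peak was listed, 6.21 kb from the start, with a fold enrichment of 8.67 and 19 fragments (11.4 to 29.7).

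Upstream of Ets2 were 8 flank peaks in a stretch of 14.0 kb. The strongest of them, at chr16:95674675-95676039, was 1365 bp wide, with a fold enrichment of 11.7 and 26 fragments (17.0 to 38.1). By fold it was the strongest of all 97 peaks. It was at or above 98.0% of all peaks in fold. It touched the promoter of Gm31901, an unnamed gene model. Of the 97 peaks 26 passed the limit of the strongest 25% of the list, which was set by -log10 q (at least 7.40) and not by fold. Of those, 17 were at Ets1 and 3 each at Ets2, Sox7 and Gata2.

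ERG, which with FLI1 holds endothelial identity, lies 115.8 kb from Ets2 and had a sparser pattern. The gene spans chr16:95359169-95586600 on the minus strand. It had 4 intronic peaks and 6 downstream peaks, and none at any of its 12 start sites. The strongest, in an intron at chr16:95440101-95440230, had a fold enrichment of 6.40 and 14 fragments (7.65 to 23.5). The nearest to a start site lay 2.68 kb upstream of a site that only predicted transcripts use. From a curated start site the nearest summit was 18.6 kb away. The strongest flank peaks, both with a fold enrichment of 6.08 and 13 fragments, lay downstream of the gene, and that at chr16:95340504-95340609 was made wholly of repeat sequence. No Erg peak was among the strongest 25% of the list. All 9 peaks between the genes had summits within 30.3 kb of the Ets2 start site.

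**Figure D4:**
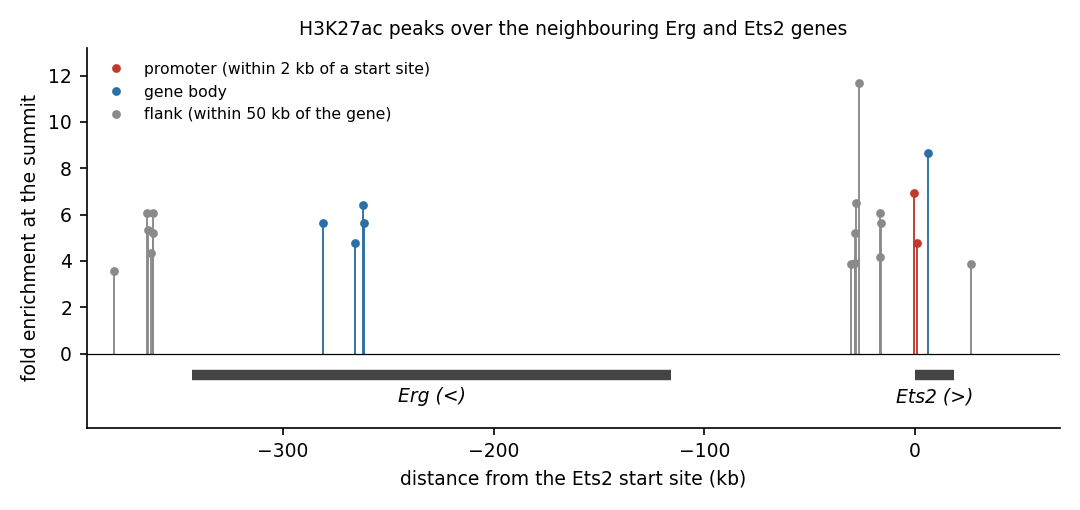
Fold enrichment at the summit (vertical axis) of each H3K27ac peak in the windows of Erg and Ets2, by distance from the Ets2 start site in kb (horizontal axis), colored by class, with dark bars for the genes and signs for their direction. The highest point, at a fold enrichment of 11.7, stands 26.6 kb upstream of Ets2, and the points over Erg stay at or below 6.40.

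Of Tal1, Lmo2 and Gata2, only Gata2 had peaks inside the gene. It spans chr6:88193891-88207032 on the plus strand with 2 start sites. Its promoter peak, at chr6:88199195-88199316, had its summit 0.546 kb past the second site, a fold enrichment of 3.58 and 11 fragments (5.49 to 19.7). That was among the weaker peaks, at or above 8.44% of all peaks in fold, and it was not kept at a -log10 q of at least 5. It lay within 2 kb of a start site of Gm38708 also. In the gene body 5 peaks lay in a stretch of 1.58 kb, and the strongest, at chr6:88203597-88203870, had a fold enrichment of 6.89 and 17 fragments (9.90 to 27.2).

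Inside Gata2, 4 of these 5 peaks were in intron 4, a 2.02 kb intron, and the fifth was in the exon before it. That intron is known for an enhancer with an E-box and a GATA site, bound by TAL1 and GATA2, that is needed for blood stem cells to emerge from endothelium. The pair of sites shown in capitals above was the only one of its kind in the 10 windows. Its kind is a CATCTG followed on the same strand by an AGATAA, with 6 to 10 bases between. Pairs in the other order, with AGATAA first, were not searched for. It began at the base after the end of a peak (chr6:88203057-88203184, fold enrichment 4.54, 12 fragments) and ended 63 bases before the next (chr6:88203268-88203376, fold enrichment 4.76, 15 fragments). It thus lay in the 83 bases between neighbouring peaks and in neither of them. Within 100 bp of a summit, such a pair was found at 27 of the 122375 peaks (0.0221%). The Gata2 peak that ends just before the pair is among them.

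Outside the gene, the strongest Gata2 peak lay 16.9 kb upstream at chr6:88176802-88177051 in an intron of Gm38708, with a fold enrichment of 7.77 and 20 fragments (12.2 to 30.9). The other upstream peak lay beside it and had 27 fragments at a fold enrichment of 6.22. The pair downstream were weaker, at 4.61 and 3.50.

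TAL1 and LMO2, the DNA-binding and adaptor partners of GATA2 in the complex, had no peak in the gene or at its promoter, and their peaks lay in the flank. Tal1 spans chr4:115056426-115071755 on the plus strand, and the nearest summit was 43.8 kb downstream of a start site. Its 3 peaks lay in a stretch of 0.760 kb. The strongest had a fold enrichment of 5.97 and 13 fragments (6.92 to 22.2). It was among 6 of the 97 peaks (6.19%) that were more than 50% repeat sequence, beside 10.2% of all peaks.

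Lmo2 spans chr2:103957903-103981878 on the plus strand, and 226.9 kb around it held no peak. Its single flank peak, at chr2:104028268-104028420, had a fold enrichment of 5.04 and 13 fragments (6.92 to 22.2). It sat at the promoters of Fbxo3, which encodes a subunit of a ubiquitin ligase, and of 4931422A03Rik, so no peak was listed that was not at the promoter of another gene.

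Among the SOXF genes no peak lay in a gene or at a promoter. Sox7 spans chr14:63943706-63950732 on the plus strand and had 8 peaks, all 30.95 to 44.8 kb upstream in intronic sequence of Pinx1, which encodes an inhibitor of telomerase. The strongest, at chr14:63899774-63900494, had a fold enrichment of 10.4 and 23 fragments (14.6 to 34.5), and a second beside it had 7.80 and 17 fragments. By fold enrichment, Sox7 was thus the gene with the third strongest peak of the 10. By fragments, its 23 came after 27 at Ets1 and at Gata2 and 26 at Ets2. Whether the 8 peaks act on Sox7 or Pinx1 was not measured. On the gene's other side no peak lay for 271.7 kb.

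SOX18 is best known for lymphatic development. Sox18 spans chr2:181669837-181671640 on the minus strand, and its 3 flank peaks lay in other genes. The strongest, at chr2:181693522-181693707 in an exon of Rgs19, a regulator of G protein signaling, had a fold enrichment of 5.65 and 12 fragments (6.20 to 21.0). It lay at the promoter of Rgs19, within 2 kb of a start site. The nearest, 14.1 kb downstream, was in an exon of Gm29797 and likewise at the promoter of that gene. The last was in an intron of Prpf6, a splicing factor. The peaks in Gm29797 and Prpf6 each had a fold enrichment of 4.36 and 9 fragments. At Sox17, which spans chr1:4490928-4497426 on the minus strand, no peak was listed in the window, and the nearest summit was 282.7 kb away.

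**Figure D5:**
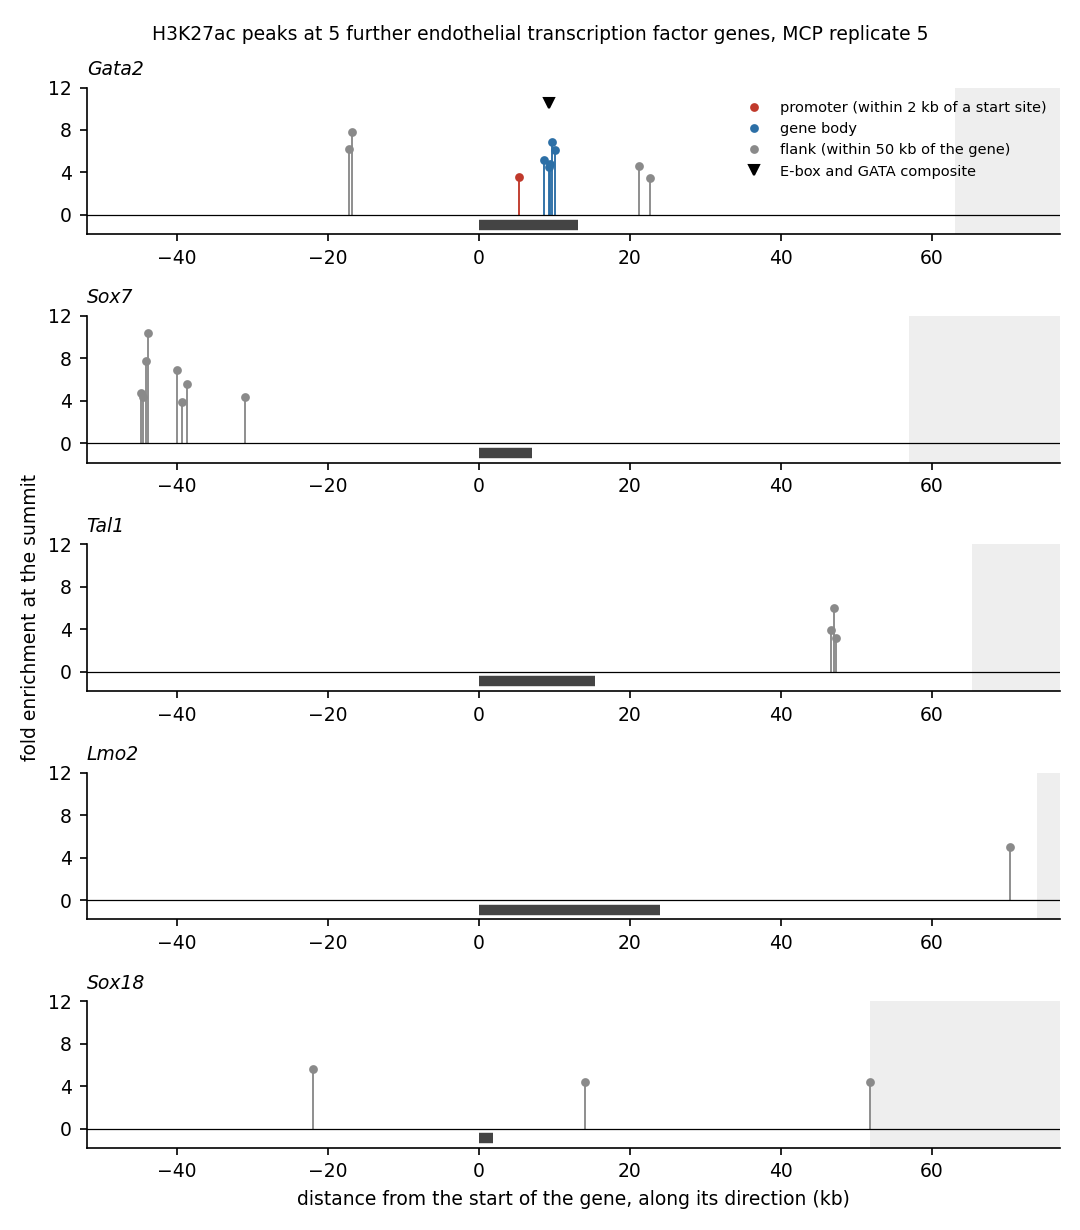
Fold enrichment at the summit (vertical axis) of each H3K27ac peak at Gata2, Sox7, Tal1, Lmo2 and Sox18, by distance from the start of the gene along its direction in kb (horizontal axis), colored by class, with a dark bar for the gene, grey shading beyond 50 kb past its end and a triangle for the E-box and GATA pair. Of these 5 genes only Gata2 has peaks inside it, several of them by the triangle, and the Sox7 peaks stand 30.95 to 44.8 kb upstream.

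The peaks of the 10 genes were searched for the letters that factors of this kind bind, on both strands within 100 bp of each summit. The ETS letters GGAAGT were found at 13.4% of the 97 peaks (Wilson 95% interval 8.0 to 21.6%), beside 13.4% of all peaks. The GATA letters AGATAA were found at 14.4% (8.80 to 22.8%), beside 11.1%, and the SOX letters AACAAT at 7.22% (3.54 to 14.2%), beside 10.8%. Among E-boxes, CATCTG, which TAL1 binds, was found at 12.4% beside 14.8%, CAGCTG, which MYOD1 binds, at 12.4% beside 10.0%, and CAGGTG at 14.4% beside 12.4%. The AP-1 letters TGANTCA were found at 6.19% beside 8.05%, TAATTA of homeodomains 5.15% beside 5.62%, and GTAAACA of forkhead factors 1.03% (1 peak) beside 3.27%. For all 9 motifs the share over all peaks lay inside the interval of the 97 peaks. No motif contains another, the median GC content was 47.8% in the 97 windows and 45.8% in all, and peaks of 1 gene are not independent.

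The same counts were made for other genes of these families. Of 8 further ETS genes 6 had a promoter peak (Etv6, Elk3, Elf1, Elf2, Elf4 and Gabpa), and the highest promoter folds were 10.1 at Elk3, 9.96 at Gabpa and 9.10 at Elf1. Etv2, which starts the endothelial program in the embryo, and Spi1, a factor of blood cells, had none. Of 8 partners of TAL1, 4 had a promoter peak, with folds of 13.4 at Runx1, 9.10 at Tcf12 and 6.51 at Tcf3, and with Ldb1 as the fourth. TCF3 and TCF12 are the broadly expressed E proteins that pair with TAL1. Of 16 other endothelial transcription factor genes 4 had a promoter peak, with folds of 9.10 at Nr2f2, 8.67 at Mecom and 6.51 at Klf2, and with Gata3 as the fourth. Median densities were 14.9, 7.16 and 2.30 peaks per 100 kb in the 3 lists, beside 5.36 over all protein-coding genes. In the same order, promoter shares were 75% (Wilson interval 40.9 to 92.9%), 50% (21.5 to 78.5%) and 25% (10.2 to 49.5%). The share over all protein-coding genes, 45.6%, lay inside each interval, so these counts do not set any of the lists apart from it.

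Marker genes were checked in the same way, each list holding 10 genes. Promoter peaks were listed at 10 housekeeping genes, at 2 myogenic genes (Pax3 and Myf6, which carry alleles of the model), at 2 blood genes (Cd68 and Fcer1g) and at 0 endothelial genes. The share over all protein-coding genes was 45.6%. The strongest promoter peaks of Cd68 and Fcer1g had folds of 5.91 and 4.57, with 13 and 10 fragments. At Fcer1g the nearest summit lay 2.04 kb from a start site, so the peak reached the promoter only by its edge. The defining myogenic genes Myod1 and Myog and the defining endothelial genes Pecam1, Cdh5 and Kdr had no promoter peak. Around the genes, peaks were denser at myogenic markers, with a median of 12.96 peaks per 100 kb beside 6.05 at endothelial, 3.66 at blood and 15.4 at housekeeping markers and 5.36 over all protein-coding genes. Myf6 had 36 peaks in its window and its neighbour Myf5, whose window overlaps it, 29, with Pax3 at 44 and Myod1 at 11, while Myog and Pax7 had 0. A peak in the gene or at its promoter was listed at 2 myogenic, 3 endothelial and 3 blood markers, each of 10, beside 52.6% of all protein-coding genes. In the gene body Pax3 had 31 peaks, Tek 14, Pecam1 4, Cdh5 3 and Spi1 2.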

How the data were processed

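H3K27ac and IgG CUT&RUN was done on nuclei of sorted tumor cells, and the peak list of MCP H3K27ac replicate 5 was assigned by the library number in its peak names. The submitters' processing notes name BWA, SAMtools, MACS2 and the builds mm10 and dm6, whereas the methods of the study name bowtie and an earlier MACS, with reads in problematic regions and near Col19a1 discarded and each sample called against its IgG. Which of these made the list is not given in the sources used here. The deposited score equaled the whole part of 10 times the -log10 q. The deposited fold enrichment was read as a ratio of scaled fragments to background, with the same constant added to both. The deposited -log10 p and -log10 q are those of the authors' caller. The largest q was 0.0471, and the list holds only peaks past the caller's threshold, so an absent peak does not show absent acetylation.

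The list states no depth. Fragments over each summit were solved as whole numbers from the fold and p of the caller's formula. With a scale of 0.885 between the libraries, 99.998% of the peaks were solved within 0.002 of the -log10 p, and 0.550% of 2000 peaks with a scale 3% higher. One number solved 96 of the 97 peaks, and over all peaks the median was 13 (quartiles 10 and 17). No molecular identifiers are named in the sources used here, so intervals on fragments cover counting error only.

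Peaks were assigned to RefSeq genes of GRCm38.p6 with at least 1 bp of overlap (Python 3.11.15, pandas 2.3.3, scipy 1.17.1, pysam 0.24.0), and repeat bases are those soft-masked in that assembly. Counting, fragment recovery, stitching and motif search were tested on simulated data. No test was run between sets of peaks, because the peaks of 1 list are not replicates. For each gene the strongest peak in each class and the nearest peak are named, for the other lists the genes with a promoter peak and the 3 highest folds, and other genes whose promoter holds one of the peaks. The members and lists were chosen with earlier results of these data known. Alternatives were other flanks and promoter widths, stronger peaks, summits in place of peaks, curated start sites, chromosome densities, stitching distances and motif windows. The sequence at 1 of the peaks is not reported here.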

Additional observations from a re-analysis of the deposited data

How the results depend on the processing

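The promoter count stayed at 3 genes with 10 or 100 kb either side, summits, promoters of 1 kb and curated start sites, and was 2 with a -log10 q of at least 5, with the strongest 25% of the peaks and without Ets1. Only Ets1 touched a stitched cluster above the limit under each alternative. Of 48 alternatives for the main values 37 stayed close and 11 moved. The 97 peaks became 51 with a -log10 q of at least 5, 26 with the strongest 25% of the peaks and 47 without Ets1, by fewer peaks. The density ratio of 1.39 was 1.91 with 10 kb either side and 0.784 without Ets1, so its side of 1 rests on Ets1. Against the chromosome of each gene it was 1.31. The median fold of 5.22 was 7.79 in the strongest 25%. Genes with any peak fell from 8 to 4 with 10 kb either side and to 4 in the strongest 25%. The share at Ets1 was 75.4% with 10 kb either side, 34.2% with 100 kb and 65.4% in the strongest 25%. Counts at single genes moved by over 1.5 times in 28 of 60 alternatives. Motif shares left their interval in 6 of 18, and each of those 6 used 50 bp either side of the summit. A shorter window can only lower these shares. The share over all peaks was not computed at that width, so the comparison with all peaks was not tested there. Leaving out Ets1 and leaving out peaks of over 50% repeat bases, which gave 91 peaks and a ratio of 1.46, were chosen after seeing the data.

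No paired analysis was possible because 1 list of 1 library was used. Low fragment numbers limit the ranking of peaks, the threshold limits what an absent peak shows, and without replicates the spread between tumors is not known.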
